A study of Homo sapiens with 4 samples.

Results

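The zinc finger genes of human chromosome 19 were examined in the nascent RNA of Karpas 299, an established ALK-positive anaplastic large cell lymphoma line with the receptor CD30 on its surface. Members were the genes counted on their own strand, placed on chromosome 19, with at least 300 counted bases and a symbol made of ZNF, digits and an optional letter. This rule found 246 members among 22798 genes, and it used no measured level. No gene of this name pattern on the chromosome fell under the minimum, and the members ranged from 792 (ZNF177) to 185638 counted bases. Of these, 243 matched a RefSeq symbol, 237 as protein-coding genes and 6 as transcribed pseudogenes. Nascent RNA was measured by Bru-seq, which pulls down RNA made while cells take up bromouridine. Cells were treated for 3 h and labelled in the last 30 min. In 1 experiment, cells received DMSO, the solvent, or SM-164, a Smac mimetic directed at inhibitor of apoptosis proteins, at a dose not given in the sources used here. In the other, cells were exposed to Chinese hamster ovary (CHO) cells or to CHO cells that carry the CD30 ligand (CD30L+ CHO), and were collected by pipetting. Each condition had 1 library, so no difference had a replicate check, no p-value was computed, and intervals covered counting error only.

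Most genes of this family encode proteins with a row of C2H2 zinc fingers, each finger contacting a few bases of DNA, and many also carry a KRAB domain. The KRAB domain binds TRIM28, which brings in the histone methyltransferase SETDB1 and heterochromatin proteins, so that the bound stretch is silenced. Many of these proteins bind transposable elements. They arose by repeated local duplication and lie in long runs along chromosome 19, often as near-copies of their neighbours, and reads shared by such copies may have been split or lost in counting, so that single values are uncertain to that extent.

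The libraries held 31030477 reads (DMSO), 26217590 (SM-164), 45885631 (CHO) and 45535365 (CD30L+ CHO) by the authors' totals, recovered from the deposited columns. Of 8 markers of the line, 7 reached an RPKM (reads scaled by counted bases and by library total) of 0.5 in a library, with a summed level of 48.9 to 101. The exception was ALK itself, at 0.0966 to 0.137 over its whole length. None of 5 B cell markers reached 0.5, with a summed level of 0.292 to 0.394. Nearly all of this sum was PAX5 (0.292 to 0.394 RPKM), while MS4A1 was at 0. None of 6 fibroblast or epithelial markers reached 0.5 either (summed level 0.302 to 0.589). Of 4 myeloid markers, CSF1R (0.653 to 0.752) and LYZ (0.317 to 0.600) reached it, with a summed level of 1.06 to 1.53. The summed level of the markers of the line was 86.0 in DMSO, 101 in SM-164, 48.9 in CHO and 64.7 in CD30L+ CHO, and the part of this in the differences between libraries given below was not tested. In bulk samples, fewer cells of a type and less RNA per cell cannot be told apart.

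Promoter sequence is shown first, because members with much and with little nascent RNA had similar median counts of CpG sites. RefSeq windows of 250 bases before the start (build GRCh38.p14) were matched for 209 of the 246 members, and the 175 with a single window were used. They held a median of 15 CpG dinucleotides, the sites of DNA methylation, against 9 over 22114 genes and 19 over 163 zinc finger genes of other chromosomes. The 2 members with the highest mean level, ZNF317 (chr19:9140147-9140396, plus strand) and ZNF121 (chr19:9584505-9584754, minus strand), are set beside 2 without a read in any library, ZNF582 (chr19:56393535-56393784, minus strand) and ZNF823 (chr19:11738947-11739196, minus strand). Capitals mark the CpG sites.
ZNF317: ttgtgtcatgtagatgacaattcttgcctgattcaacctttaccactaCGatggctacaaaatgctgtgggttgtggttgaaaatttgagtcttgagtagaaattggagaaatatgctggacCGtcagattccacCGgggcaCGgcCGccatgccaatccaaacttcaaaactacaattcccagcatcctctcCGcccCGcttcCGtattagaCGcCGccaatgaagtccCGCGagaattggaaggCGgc
ZNF121: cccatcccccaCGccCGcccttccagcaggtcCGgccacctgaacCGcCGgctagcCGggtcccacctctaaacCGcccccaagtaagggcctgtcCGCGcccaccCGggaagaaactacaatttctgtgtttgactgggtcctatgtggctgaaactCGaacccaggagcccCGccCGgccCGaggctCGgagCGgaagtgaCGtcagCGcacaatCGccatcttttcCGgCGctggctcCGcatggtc
ZNF582: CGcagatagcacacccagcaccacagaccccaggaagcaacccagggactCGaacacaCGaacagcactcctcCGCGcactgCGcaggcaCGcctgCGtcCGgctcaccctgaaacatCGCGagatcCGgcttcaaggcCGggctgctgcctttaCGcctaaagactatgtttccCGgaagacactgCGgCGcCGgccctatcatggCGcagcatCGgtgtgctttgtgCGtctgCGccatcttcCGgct
ZNF823: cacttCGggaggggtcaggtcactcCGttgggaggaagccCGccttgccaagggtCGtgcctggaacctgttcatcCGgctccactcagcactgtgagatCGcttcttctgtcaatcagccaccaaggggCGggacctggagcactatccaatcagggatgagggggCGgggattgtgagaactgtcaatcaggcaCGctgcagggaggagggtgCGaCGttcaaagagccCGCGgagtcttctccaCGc
These windows held 13, 22, 23 and 14 CpG sites. The silent pair was picked as the members without a read that had most CpG sites, so these examples are no test. Of the other members without a read, ZNF844 and ZNF726 held 13 sites, and ZNF878 and ZNF154 held 11. Over the 175 windows the Spearman correlation of mean level with CpG count was 0.093, as a description across genes of related sequence. Members with a mean of at least 0.5 RPKM over the 4 libraries are called transcribed, and those under 0.05 RPKM in every library near silent. The median CpG count was 15 in transcribed members, 16.5 in those between and 15 in near-silent ones.

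A short element was common in these windows. The core of the ETS family site, CCGGAAG on either strand, stood in 55 of 175 member windows (31.4%), in 28.2% of zinc finger genes of other chromosomes and in 8.90% of all windows. Among members it was held by 33.3% of transcribed, 33.9% of intermediate and 28.2% of near-silent genes. Its share differed along the chromosome, which was divided into runs of members at most 1 Mb apart. In the run of neighbours from ZNF101 to ZNF254 (run 5) 15 of 24 windows held it, in the last run, from ZNF628 to ZNF446, 24 of 48, and in the run from ZNF653 to ZNF791 1 of 22. The element of 5 members of run 5 is printed with its flanks in gene orientation, since members at very different levels carry similar letters. Capitals mark the element, here on the opposite strand to the gene. The places are chr19:21020619-21020655, plus strand for ZNF430, chr19:21142001-21142037, plus strand for ZNF431, chr19:23395474-23395510, minus strand for ZNF91, chr19:20923218-20923250, plus strand for ZNF85 and chr19:23914847-23914883, plus strand for ZNF726.
ZNF430: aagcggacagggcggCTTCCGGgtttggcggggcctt
ZNF431: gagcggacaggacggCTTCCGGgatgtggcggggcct
ZNF91: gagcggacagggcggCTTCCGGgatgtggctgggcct
ZNF85: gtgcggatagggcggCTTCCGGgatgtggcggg
ZNF726: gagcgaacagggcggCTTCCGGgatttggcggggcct
In all 15 windows of run 5 that held it, the element was on the opposite strand, 10 to 17 bases before the start, and in the same 10 bases, GGCTTCCGGG. Over the first 32 bases of these flanked sequences, 21 to 30 were identical to ZNF91 in the other 14 members. This count includes the bases of the element itself, which match by selection. The mean level of the 15 genes nevertheless ran from 0 RPKM (ZNF726, at 29 identical bases) to 1.62 RPKM (ZNF430, at 25). ZNF431, transcribed at 1.44 RPKM, and ZNF492, near silent at 0.0229 RPKM, were both identical to ZNF91 at 30 bases.

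The last run carried a second form. The commonest 10 bases there, GACTTCCGGC, stood in 10 of its 24 windows with the element. Examples are given for ZNF547 (chr19:57363409-57363445, plus strand) and ZNF805 (chr19:57240580-57240616, plus strand), both transcribed, and for ZNF671 (chr19:57727625-57727655, minus strand) and ZNF419 (chr19:57487718-57487749, plus strand), both near silent, with the element in capitals.
ZNF547: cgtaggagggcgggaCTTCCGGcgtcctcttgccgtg
ZNF805: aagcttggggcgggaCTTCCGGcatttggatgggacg
ZNF671: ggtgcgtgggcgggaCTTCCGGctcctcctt
ZNF419: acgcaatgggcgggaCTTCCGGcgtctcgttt
The other motifs searched, on both strands, were the GC box GGGCGG (65.1% of member windows, 40.9% of all windows), the CCAAT box CCAAT (56.6% and 33.4%), the TATA box TATAAA (2.29% and 11.8%), the NF-kB core GGANTTTCC (1.14% and 1.48%) and the MYC E-box CACGTG (2.86% and 6.34%). In near-silent members the GC box was found in 73.2% of windows and in transcribed members in 58.3%. A match of letters is a description and not a binding site.

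Members together took under 0.2% of each library. They held 49837 of the reads in DMSO (0.161%, 95% exact binomial interval 0.159% to 0.162%), 41396 in SM-164 (0.158%, 0.156% to 0.159%), 90169 in CHO (0.197%, 0.195% to 0.198%) and 80279 in CD30L+ CHO (0.176%, 0.175% to 0.178%). The share was thus higher in both libraries of the co-culture experiment. An RPKM of 0.5 was reached by 44, 43, 59 and 55 members in the same order, and 35, 41, 25 and 31 members had no read. Where no read was found, up to 3 reads remain possible, or 0.0654 to 0.114 on the RPKM scale for a gene of 1 kb. The median member had 0.0546 RPKM in DMSO, 0.0682 in SM-164, 0.0740 in CHO and 0.0587 in CD30L+ CHO.

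By mean RPKM over the 4 libraries, 53 members (21.5%) were transcribed, 109 (44.3%) were near silent and 84 lay between. The transcribed share was 50.2% among 279 zinc finger genes on other chromosomes, 27.4% among the other 1219 genes of chromosome 19 and 37.1% among all 21187 genes with 300 counted bases. Near-silent shares were 24.7%, 41.8% and 40.9% in the same order. No member reached a mean of 3 RPKM, a level that 7.17% of the other zinc finger genes and 7.05% of all genes reached. The median transcribed member stood at 1.08 RPKM and the median transcribed zinc finger gene elsewhere at 1.12 RPKM. These medians cover only genes past the 0.5 RPKM cut, which draws them together. The highest mean was 2.70 RPKM in members and 9.47 RPKM in zinc finger genes elsewhere. The chromosome 19 members thus differed from those genes in how many were transcribed and in the highest levels reached. Counted bases were alike, with a median of 19102 in members and 20247 in zinc finger genes elsewhere. The 53 transcribed members held 78.3% to 79.9% of all member reads.

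The 8 members with the highest mean level are given first, and the leading 3 lie in the same run. ZNF317, a KRAB zinc finger gene, had 2.29 RPKM in DMSO, 2.37 in SM-164, 3.29 in CHO and 2.84 in CD30L+ CHO. ZNF121, in the same run, had 2.53, 2.44, 2.94 and 2.64 RPKM in that order. ZNF562, further along that run, had 2.45, 2.50, 2.78 and 2.77 RPKM. The order of these 3 changed from library to library, so their levels did not separate them. The promoter windows of ZNF121 and ZNF562 share an unbroken stretch of 29 bases, and that of ZNF317 was not compared with them. ZNF302 followed with 2.32, 2.19, 2.77 and 2.69 RPKM. ZNF460 had 2.04, 2.18, 2.48 and 2.90 RPKM and was the highest member in CD30L+ CHO. ZNF146, whose protein consists almost only of zinc fingers, without a KRAB domain, had 2.21, 1.96, 2.30 and 1.94 RPKM. ZNF627 had 1.79, 1.92, 2.17 and 1.94 RPKM. ZNF180 had 1.72, 1.73, 1.98 and 1.52 RPKM, and it and ZNF146 were the 2 of these 8 at their lowest in CD30L+ CHO. All 8 were at their highest in CHO except ZNF460.

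**Figure D1:**
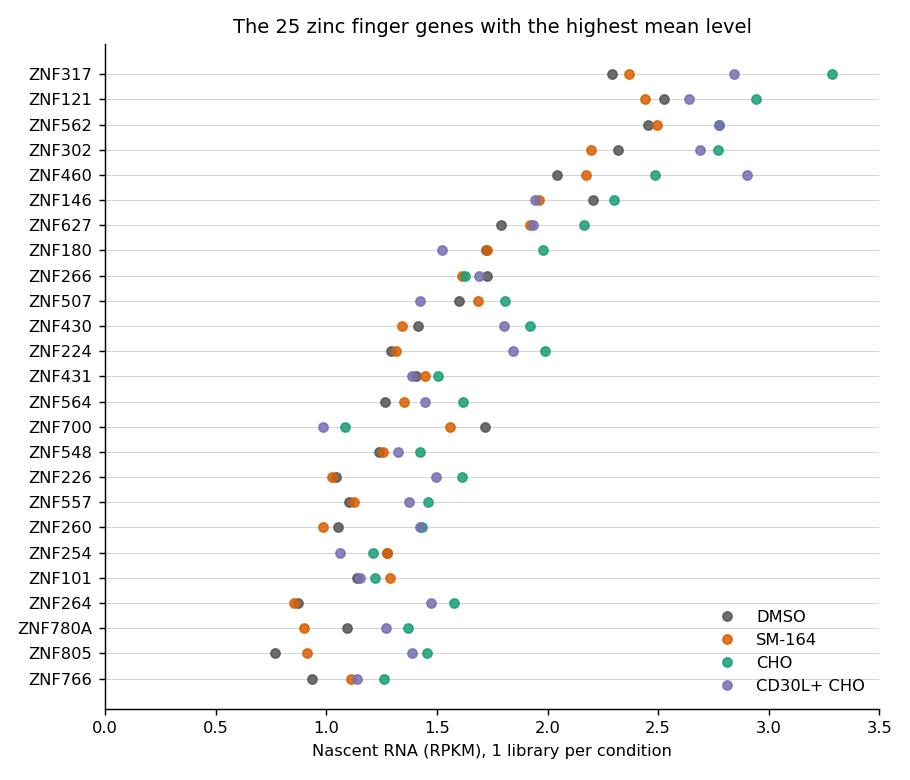
RPKM of the 25 members with the highest mean level, 1 point per library. ZNF317, ZNF121 and ZNF562 lead with means of 2.63 to 2.70, DMSO and SM-164 points mostly lie close together, and ZNF700 is the member whose DMSO point lies farthest above its CHO point.

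Members with a studied target or role were found at all levels. ZNF274, which recruits SETDB1 to the ends of other zinc finger genes, had 0.662 RPKM in DMSO, 0.628 in SM-164, 0.988 in CHO and 0.946 in CD30L+ CHO. ZNF224, a KRAB repressor, had 1.29, 1.32, 1.99 and 1.84 RPKM. In both genes the 2 co-culture libraries stood above the 2 drug libraries. ZNF91, which represses SVA retrotransposons, had 0.643, 0.543, 0.698 and 0.705 RPKM. ZNF93, which represses a group of LINE-1 elements, had 1, 5, 0 and 0 reads. These 2 genes of 1 run, both known for binding retrotransposons, therefore fell into the transcribed and the near-silent class.

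A further 5 members were named because their promoters are often methylated in tumours, and 4 of them were near silent, a class that held 44.3% of all members; the 5 were chosen with earlier results known and are no test. ZNF154 had no read in any library, and ZNF671, close by, had 3, 3, 0 and 0 reads. ZNF331 had 23, 18, 43 and 42 reads (0.0116 to 0.0158 RPKM), and ZNF382 had 31, 14, 42 and 31 reads (0.0229 to 0.0429 RPKM). ZNF677 had 17, 27, 67 and 61 reads, or 0.0281, 0.0529, 0.0750 and 0.0688 RPKM. DNA methylation was not measured here. Beside ZNF154, ZNF582 and ZNF823, 5 further members had no read in any library: ZNF812, ZNF878, ZNF844, ZNF98 and ZNF726.

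Transcribed shares differed between stretches of the chromosome. There were 16 runs of 1 to 59 members, whose positions are given in hg19. Run 2 (7069471 to 9879410), which holds ZNF317, ZNF121 and ZNF562, had 6 transcribed of 16 members. Run 3 (11594242 to 12740676) had 5 of 27 transcribed and 17 near silent. Run 5 (19779663 to 24312654), with ZNF91 and ZNF93, had 7 of 33 transcribed and 20 near silent, so 63.0% of run 3 and 60.6% of run 5 were near silent. Run 9 (36673187 to 38270230) had 6 of 26 transcribed and 7 near silent, and run 12 (44037340 to 45579688) had 7 of 23 and 7. Run 15 (52074531 to 54083523) was the quietest of the large runs, with 2 of 41 transcribed and 28 near silent. Its transcribed members were ZNF766 (mean 1.11 RPKM) and ZNF614 (mean 0.669 RPKM). Run 16 (55987699 to 58992597), the largest, had 11 of 59 transcribed and 18 near silent, with ZNF460 at the top.

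**Figure D2:**
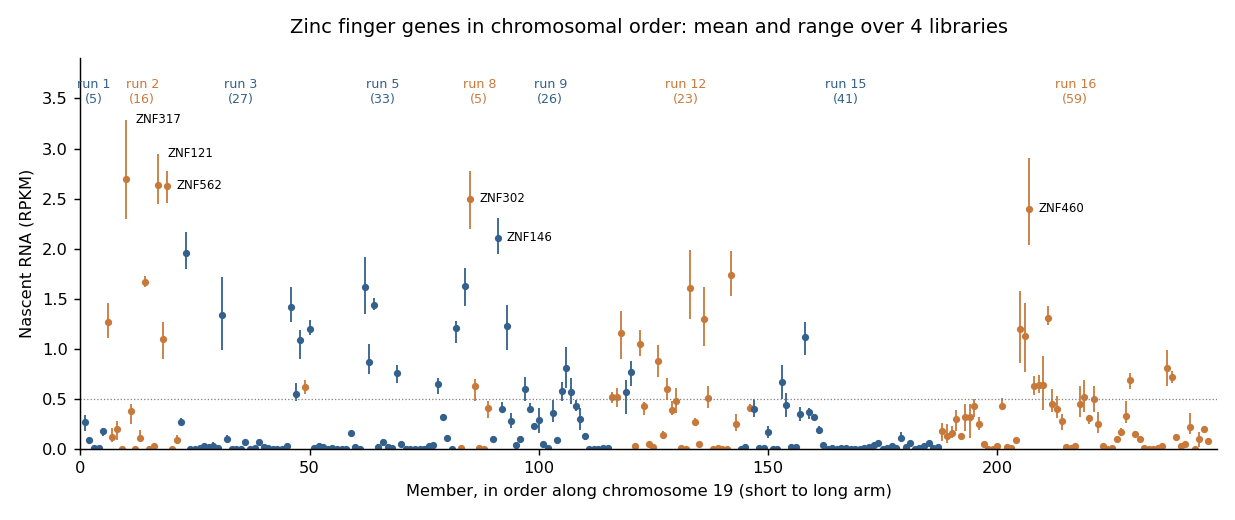
RPKM of the 246 members in their order along chromosome 19; points are means and bars the lowest to highest of 4 libraries, colours alternate between runs, the number of members is given for runs of 5 or more, and the dotted line marks 0.5 RPKM. Members of every level lie in the large runs, and run 15 has 2 members with a mean above the line.

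The transcribed share was higher in longer members, from 14.6% of 48 members under 10000 counted bases and 19.8% of 81 members between 10000 and 20000 to 25.5% of 98 members between 20000 and 40000 and 26.3% of the 19 longer ones. On the plus strand 37 of 132 members were transcribed and on the minus strand 16 of 114. Few members started within 1000 bases of another member and pointed away from it on the opposite strand, and all such pairs follow. ZNF490 and ZNF791, 109 bases apart, had means of 0.552 and 1.08 RPKM, while ZNF529 and ZNF382, 43 bases apart, had 0.279 and 0.0336 RPKM. ZNF829 and ZNF568, 38 bases apart, were both low, at 0.0464 and 0.00312 RPKM.

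The order of the members was similar across libraries. Over all 246 members, Spearman's rho between the levels of 2 libraries was 0.964 to 0.985, and over the 53 transcribed members it was 0.979 for DMSO with SM-164, 0.970 for CHO with CD30L+ CHO and 0.849 for DMSO with CD30L+ CHO. These are descriptions across genes, and genes are not replicates.

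The SM-164 comparison asked what the Smac mimetic did to transcription, and member levels in the 2 libraries lay close together. A member was tested when its mean RPKM over the 2 libraries was at least 0.5, and differences are log2 ratios of RPKM + 0.25, a scale that understates those of low genes. Of 246 members, 44 passed, and their median log2 ratio was -0.01 (quartiles -0.08 and 0.07) beside -0.04 over 7881 genes; the members' median became 0.029 once all genes were centred on 0 and 0.055 after subtraction of the trend with length, so its sign depended on the scaling. On this scale all 44 lay within 1.25-fold, as did 88.6% of all genes. No member was 2-fold higher (0.19% of all genes were) or 2-fold lower (0.0634%), and none was 1.5-fold higher (0.787%) or lower (1.1%). Summed over all 246 members without a filter, reads were 0.983-fold those of DMSO (95% interval 0.970 to 0.996, counting error only), and 1.01-fold after TMM scaling, a scaling that trims the genes with the largest differences (1.00 to 1.03). Over all genes the same sum was 1.01-fold, and 1.05-fold after TMM scaling.

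The 5 lowest members under SM-164 were ZNF780A, ZNF546, ZNF791, ZNF543 and ZNF91, and the 5 highest ZNF181, ZNF766, ZNF805, ZNF574 and ZNF101. ZNF780A had 0.901 RPKM with SM-164 and 1.09 with DMSO, a ratio of reads per library of 0.826 (0.737 to 0.926). ZNF546, in the same run of 3 genes, had 0.458 and 0.564 RPKM and a ratio of 0.812 (0.688 to 0.957). ZNF181 had 0.625 and 0.474 RPKM from 136 and 122 reads, a ratio of 1.32 (1.03 to 1.70). ZNF181 passed the minimum level through SM-164 alone, and ZNF546 through DMSO alone, so each had to differ in its direction. ZNF766 had 1.11 and 0.937 RPKM (ratio 1.19, 1.07 to 1.32). The counting interval held 1 in 34 of the 44 members, lay below it in 7 and above it in 3, a count not made over all genes. The spread between repeated libraries is not known, so a difference of this size is not shown to exceed it.

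The comparison of CD30L+ CHO with CHO asked what the CD30 ligand did. Of 246 members, 58 passed, and their median log2 ratio was -0.09 (quartiles -0.16 and -0.03) beside -0.12 over 7661 genes, but it was 0.028 once all genes were centred on 0, 0.039 after subtraction of the length trend and 0.079 under TMM scaling, which moved the median of all genes from -0.12 to 0.06. Of the 58 members, 10 were above 0 as deposited and 40 under TMM scaling. Within 1.25-fold on the log2 scale with the pseudocount lay 55 of the 58, against 5744 of all 7661 genes. That scale understates differences of low genes. By the plain ratio of reads further members lay outside 1.25-fold, among them ZNF17 (0.739) and ZNF507 (0.788). On the log2 scale with the pseudocount, no member was 2-fold higher (0.979% of all genes were) or lower (0.731%), and none was 1.5-fold higher (2.62%) or lower (4.99%). By the plain ratio of reads, 1 member was 1.5-fold lower (ZNF574) and none 2-fold, and the share of all genes on this ratio was not computed. The reads of all 246 members were 0.897-fold those of CHO (0.889 to 0.906), and 1.03-fold with TMM scaling (1.02 to 1.04). The same sums were 1.01-fold and 1.17-fold over all genes, so the members' sum was lower than that of all genes on either scale. They were 0.963-fold and 1.11-fold over zinc finger genes elsewhere, and 0.825-fold and 0.952-fold over the other genes of chromosome 19. For the other genes of chromosome 19 the median log2 ratio of the 296 tested was -0.32, and -0.15 under TMM scaling.

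ZNF574 stood lowest, with 0.352 RPKM in CD30L+ CHO and 0.651 in CHO from 87 and 162 reads, a ratio of 0.541 (0.412 to 0.707). It and ZNF17 were among 4 members that passed the minimum level through CHO alone, so that they had to be lower in CD30L+ CHO. ZNF526, the other member of the same run, was next with 0.624 and 0.879 RPKM, a ratio of 0.709 (0.595 to 0.844). Both are short genes, of 5431 and 7862 counted bases, and after subtraction of the length trend their log2 ratios were -0.37 and -0.17 in place of -0.58 and -0.37. ZNF180 followed with 1.52 and 1.98 RPKM from 1714 and 2246 reads, a ratio of 0.769 (0.722 to 0.819), and ZNF507 with 1.43 and 1.81 RPKM (ratio 0.788, 0.750 to 0.829). ZNF17 completed the lowest 5. ZNF460 was highest, with 2.90 and 2.48 RPKM from 1795 and 1548 reads, a ratio of 1.17 (1.09 to 1.25), and it was the only tested member whose counting interval lay above 1. The interval lay below 1 in 25 members and held it in 32, a count not made over all genes. It used the library totals without TMM scaling, under which 40 of the 58 members were above 0. Next below ZNF460 were ZNF547, ZNF432, ZNF266 and ZNF222, at ratios of 1.08, 1.07, 1.04 and 1.04.

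CHO against DMSO set the controls of the 2 experiments side by side. These libraries differ in the experiment and in the presence of CHO cells, which cannot be told apart, and the comparison shares a control with each of the others. Members lay farther apart here than in either treatment. Of 246, 54 passed, 11 of them through CHO alone, and their median log2 ratio was 0.26 (quartiles 0.12 and 0.40) beside 0.06 over 8081 genes; it stayed above 0 under TMM scaling (0.17) and after subtraction of the length trend (0.13), and was 0.030 without a minimum level. All 246 members together, with no filter, had 1.22-fold the reads in CHO (1.21 to 1.24), and 1.13-fold under TMM scaling (1.12 to 1.15). For zinc finger genes elsewhere the same sum was 1.15-fold, and 1.06-fold under TMM scaling. For the other genes of chromosome 19 it was 0.872-fold, and 0.807-fold under TMM scaling. On the log2 scale with the pseudocount, no member was 2-fold higher (0.879% of all genes were) or lower (4.52%). At 1.5-fold on that scale, 3 of 54 were higher, beside 7.07% of all genes, and none was lower, beside 10.7%. By the plain ratio of reads, which has no pseudocount, 1 member was 2-fold higher (ZNF547), 11 were 1.5-fold higher and 1 was 1.5-fold lower (ZNF700). The share of all genes on this ratio was not computed, so these counts are not shown to exceed it. Among those 1.5-fold higher, ZNF227, ZNF567, ZNF527, ZNF416, ZNF614 and ZNF547 passed through CHO alone and had to be higher there. Whether RNA of hamster cells contributed reads was not tested.

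**Figure D3:**
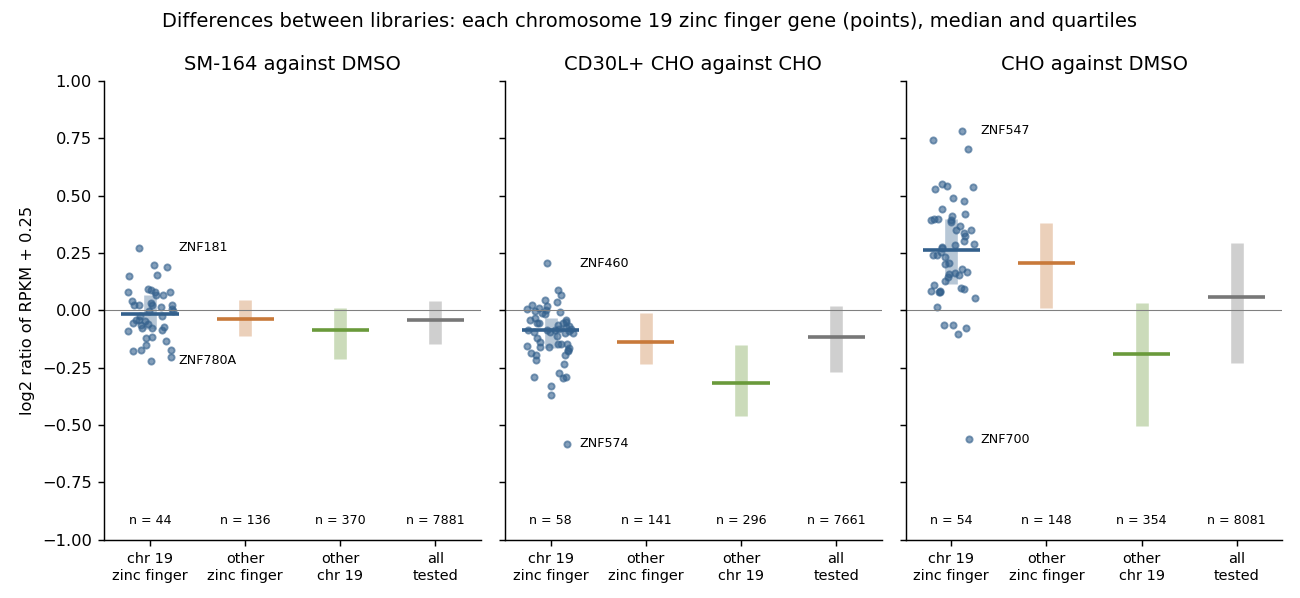
Log2 ratios of RPKM + 0.25 in the 3 comparisons: points are the tested members, horizontal lines the medians and shaded bars the quartiles of members, other zinc finger genes, other chromosome 19 genes and all tested genes. On this scale, members lie within 1.25-fold with SM-164, and are centred at 0.26 in CHO against DMSO.

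The 3 members at 1.5-fold on the log2 scale were ZNF547, ZNF805 and ZNF264, which are near neighbours. ZNF547 had 0.856 RPKM in CHO and 0.393 in DMSO from 558 and 173 reads, a ratio of 2.18 (1.84 to 2.60), and was among the 11 that passed through CHO alone and so had to be higher there. ZNF805 had 1.45 and 0.769 RPKM (ratio 1.89, 1.71 to 2.09), and ZNF264 had 1.58 and 0.873 RPKM (ratio 1.81, 1.67 to 1.96). In all 3, SM-164 stood with DMSO and CD30L+ CHO with CHO, at 0.392, 0.912 and 0.855 RPKM and at 0.925, 1.39 and 1.47 RPKM. They lie among 8 consecutive members on the plus strand of run 16 (57702868 to 57933307, hg19), a stretch chosen after its values were seen. Between them, ZNF460 had a ratio of 1.22, ZNF543 1.13 (0.949 to 1.35) and ZNF304 1.33, and beyond them ZNF548 had 1.15 and ZNF17 1.48, so the stretch did not differ as 1 block. ZNF383 (1.01 and 0.612 RPKM) and ZNF614 (0.840 and 0.497 RPKM, also passed through CHO alone) completed the highest 5.

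ZNF700 was lower in CHO, with 1.08 RPKM against 1.72 in DMSO, a ratio of 0.631 (0.584 to 0.681). Its levels were 1.56 RPKM in SM-164 and 0.987 in CD30L+ CHO, so the libraries of each experiment paired again. ZNF100, ZNF266, ZNF254 and ZNF587 were next, at ratios of 0.909, 0.941, 0.948 and 0.942. Of these, ZNF100 was the only one whose interval (0.841 to 0.982) did not hold 1. Over the 54 members the interval lay above 1 in 40, below it in 2 and held it in 12. This count was not made over all genes, and the 11 members that passed through CHO alone had to be higher there.

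Length was set beside these differences, because the log2 ratios of all genes varied with it. In CHO against DMSO, all tested genes under 10000 counted bases had a median of -0.24, while the 8 members of that length had 0.26. In the next range, to 20000, the medians were 0.10 for all genes and 0.34 for 16 members, and to 40000 they were 0.18 and 0.27 for 25 members. In the longest range the order turned, with 0.10 for all genes and 0.08 for 5 members. With CD30L+ CHO, all genes under 10000 had -0.22 and 10 members -0.16, while in the longest range all genes had -0.06 and 5 members -0.16.

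**Figure D4:**
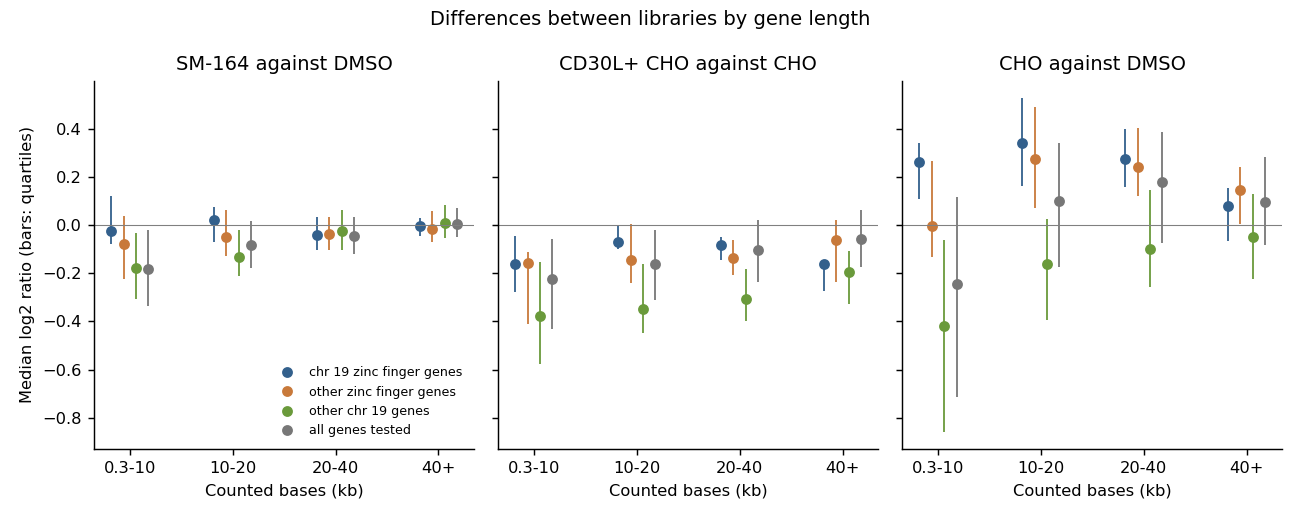
Median log2 ratio (points) and quartiles (bars) by counted bases in kb, for members, zinc finger genes elsewhere, other chromosome 19 genes and all tested genes. Under 10 kb in CHO against DMSO, members lie at 0.26 and all genes at -0.24; in the longest class they lie at 0.08 and 0.10.

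The log2 ratios of the 44 members with SM-164 were also set against those with CD30L+ CHO, 2 comparisons with no library in common. Pearson's r was 0.04 and Spearman's rho 0.12 across members, and 0.57 and 0.40 across 7210 genes. With SM-164, log2 ratios ran from -0.22 to 0.27 in members and from -1.16 to 2.65 in all tested genes. A narrow span leaves more of the spread to counting error, and its part in the lower correlation was not tested. These describe genes of 1 library pair each, with no replicate behind them.

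Co-repressors through which KRAB zinc finger proteins act were read from a list of 28 genes. TRIM28, the KRAB partner, had 2.11 RPKM in DMSO, 1.89 in SM-164, 1.71 in CHO and 0.991 in CD30L+ CHO. Its ratio in CD30L+ CHO against CHO was 0.579 (0.498 to 0.671), the lowest of the 26 listed genes tested. The TRIM28 log2 ratio of -0.66 became -0.49 with TMM scaling and -0.44 after subtraction of the length trend. The listed genes under the minimum level had lower ratios: EHMT2 0.531 (0.453 to 0.620), at 0.304 and 0.572 RPKM, and DNMT3A 0.528 (0.373 to 0.741), at 0.0108 and 0.0205 RPKM. SETDB1, the methyltransferase, had 1.96, 2.06, 2.36 and 2.34 RPKM, so its 2 co-culture levels were alike. Of 26 listed genes tested in each treatment, none was 2-fold different, and the medians were -0.07 with SM-164 (-0.03 under TMM scaling) and -0.12 with CD30L+ CHO, where TMM scaling turned the sign (0.05). CBX1, a heterochromatin protein counted over 2676 bases, was lowest with SM-164 (log2 ratio -0.58). DAXX, a histone chaperone, was highest in both (0.18 and 0.14), with counting intervals that held 1 (0.847 to 1.70 and 0.887 to 1.48). With SM-164, DAXX passed the minimum level through SM-164 alone (0.590 and 0.491 RPKM), so it had to be higher there. In CHO against DMSO, 2 of 27 were 2-fold lower, beside 4.52% of all genes: CBX1 (log2 ratio -1.44, and -0.99 after subtraction of the length trend, which no longer reaches 2-fold) and UHRF1 (-1.05), which is known for its part in DNA methylation upkeep, and PPHLN1, of the HUSH silencing complex, was highest (0.39).

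Antisense reads made up a larger share in members than over all features. Of reads on either strand of members, 8.60% were antisense in DMSO, 8.94% in SM-164, 8.66% in CHO and 8.37% in CD30L+ CHO, while over all features the share was 4.01% to 4.35%. Strand-specific preparation is stated by the labels for certain samples without naming them here, and the files list both strands for all 4. Of 245 members with an antisense feature, 97 had at least 40 antisense reads over the 4 libraries, and only 4 of these overlapped a listed gene on the other strand. In 30 of the 97, antisense reads outnumbered sense reads. None of these counts was made over all features, so they are not shown to be particular to members. ZNF529 had most, with 578, 484, 1283 and 1373 antisense reads in DMSO, SM-164, CHO and CD30L+ CHO, a total of 3718 against 2711 sense reads. ZNF506 had 397, 286, 480 and 383 antisense reads, 1546 in all, and 110 sense reads, so 93.4% of its reads lay on the other strand although its sense level put it among the near-silent members. ZNF793 had 1316 antisense and 671 sense reads, and ZNF865 had 594 and 208. The nearest listed gene that points at the end of ZNF506 was ZNF101, 112381 bases away, and for ZNF529 it was LOC728752, 52574 bases away. For ZNF865 it was ZNF784, 2199 bases away, with a mean of 0.127 RPKM. The 10 members with most antisense reads held 48.8% of them, and 41 members had none.

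**Figure D5:**
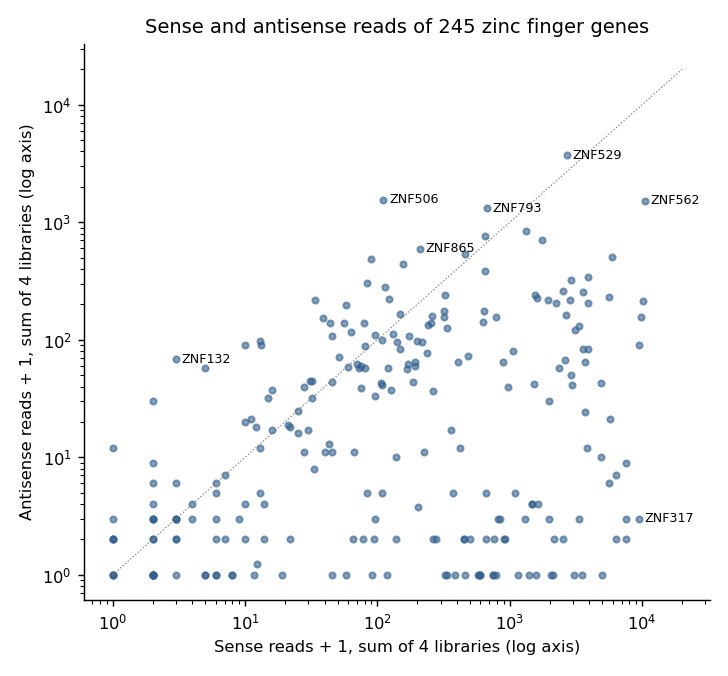
Antisense against sense reads of 245 members, each summed over 4 libraries plus 1, on log axes; the dotted line marks equal counts. ZNF529, ZNF506, ZNF793, ZNF865 and ZNF132 lie above the line. ZNF562 (1518 antisense and 10451 sense reads) lies below it, and ZNF317 (2 and 9523) far below it.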

How the data were processed

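Bru-seq libraries of 4 conditions, 1 each, were used. The submitters' processing notes name build hg19 and the tools bedtools 2.16.2, TopHat 1.4.1, Bowtie 0.12.8 and CASAVA 1.8.2. Which annotation was used is not stated in the labels. The authors deposited an estimated count per feature over exons and introns, which lies more than 0.01 from a whole number for 41 to 68 of the members per library. The authors deposited the signal per base in another column, and the RPKM, scaled by 1 total per library. Members and lists were chosen with earlier results of these data known.

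Levels and log2 ratios used the deposited RPKM, with a pseudocount of 0.25 and a mean of at least 0.5 over the 2 libraries compared. Of repeated symbols, the entry with most counted bases was kept. Ratios of reads used estimated counts rounded to whole reads over the library totals, with an exact conditional 95% interval; reads copied by PCR are not independent molecules, so intervals and the limit for a count of 0 cover counting error only. Named were the 8 members with the highest mean RPKM, the 5 highest and 5 lowest ratios per comparison, ZNF91, ZNF93, ZNF274, ZNF224, ZNF382, ZNF331, ZNF154, ZNF671 and ZNF677, and TRIM28, SETDB1 and the ends of the co-repressor list; other genes were named after their values were seen. The alternatives were other pseudocounts, minimum levels, counted bases, scalings (TMM with edgeR 4.0.16 in R 4.3.3), a length trend over 301 genes, name patterns and folds. The ratio procedure was tested on simulated data. Scripts ran in Python 3.11.15 with matplotlib 3.10.9, scipy 1.17.1, pandas 2.3.3 and numpy 2.4.6.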

Additional observations from a re-analysis of the deposited data

How the results depend on the processing

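On the log2 scale, the counts of members at 2-fold were 0 in all 3 comparisons under every alternative run, except that 3 members were higher at 1.5-fold in CHO against DMSO. The median log2 ratio with SM-164 against DMSO, -0.01, became 0.017 at a mean RPKM of at least 1, 0.029 with all genes centred on 0, 0.021 with TMM scaling and 0.055 with the length trend subtracted. For CD30L+ CHO against CHO, -0.09 became -0.059 with a pseudocount of 1, -0.038 without a minimum level, 0.028 with all genes centred on 0, 0.079 with TMM scaling and 0.039 with the length trend subtracted. For CHO against DMSO, 0.26 became 0.29 and 0.16 with pseudocounts of 0.1 and 1, 0.030 without a minimum level, 0.24 at a mean RPKM of at least 1, 0.20 with all genes centred on 0, 0.17 with TMM scaling and 0.13 with the length trend subtracted. The number of transcribed members, 53, was 87 at a mean RPKM of 0.25 and 28 at 1, thresholds chosen after seeing the data. For the 10 members named by their ratio in each comparison, pseudocounts, scalings and the length trend gave 150 values, of which 26 moved beyond the counting interval and none changed sign. The cause was not tested in any of these. The alternative restricted to proteins with a KRAB motif was not run, since no protein table was used here. No paired analysis was possible because each condition has 1 library. Depth limits the near-silent members: most of their ratios rest on a few reads, and none is given.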
